A study of Mus musculus with 6 samples.

Results

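The genes described here form the MYC-MAX-MXD network: the MYC paralogs Myc, Mycl and Mycn, their obligate partner Max, the repressor partners Mxd1, Mxi1, Mxd3 and Mxd4, and the larger MAX-binding proteins Mnt and Mga. They were taken by gene symbol, and all 10 were among the 21825 genes of the count table and among the 15719 with enough counts to test. Mycl was chosen by its measured change between TNFa and PBS, so its values in that comparison are a description and its p-value supports nothing here. The other 9 genes were taken as its relatives, with the results of the same comparison known.

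The data are RNA-seq libraries of group 2 innate lymphoid cells (ILC2s), lymphocytes without rearranged antigen receptors that make type 2 cytokines, sorted from BALB/c mouse lung (animals 6 weeks of age). All mice had received 3 intraperitoneal injections of 1 µg recombinant IL-33, so both groups hold cells expanded and activated in the animal. Both groups were then cultured for 48 h with IL-2 and IL-7 at 10 ng/mL each. The TNFa group (3 libraries, replicates 4 to 6) also received 40 ng/mL TNFa, and the PBS group (3 libraries, replicates 1 to 3) received PBS. The label of PBS replicate 2 alone marks it as a repeat, and does not say what was repeated. Nothing in the labels ties a library to its own animal or culture, so the spread behind each p-value may be technical.

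The libraries held 25089415 to 32487004 counts. TNFa replicate 5 stood apart: its score on the first principal component (35.6% of the variance) was 90.4, against -22.6 to -14.5 for the other 5, and the 76 ribosomal protein genes took 4.09% of its counts against 2.53% to 2.83% elsewhere. Log2 fold changes of the members, and counts of calls at an adjusted p under 0.05 where they change, are also given without it. The 16 listed ILC2 genes summed to 9929 to 11097 CPM (counts per 1000000, TMM-scaled) with PBS and 10372 to 11378 CPM with TNFa, and the sums overlapped. Il5 (4520 against 5442 CPM) and Il2ra (1841 against 2228 CPM), both with higher means with TNFa, weighed most on these sums. Not every listed gene was abundant, Thy1 being at most 4.52 CPM in any library. Of these 16 genes, 5 had higher and 11 lower fitted values with TNFa, with a median log2 fold change of -0.32. The groups did not overlap for 2 that were higher and 8 that were lower, beside 6.85% and 8.35% of tested genes. Icos, a costimulatory receptor gene, fell from 888 ± 69.0 to 517 ± 33.1 CPM (adjusted p = 0.036 by the edgeR quasi-likelihood test, which called 0.0127% of tested genes lower). DESeq2, an alternative test on the same counts, called 4 lower (Icos, Arg1, Gata3 and Il1rl1; 0.7% of tested genes), and at an unadjusted p under 0.05 edgeR had 4 higher and 7 lower, beside 3.68% and 4.63% of tested genes. Without TNFa replicate 5 the edgeR calls were Icos and Arg1, both lower (0.176% of tested genes). In bulk RNA, fewer cells of a type and less RNA per cell cannot be told apart.

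MYC proteins are basic helix-loop-helix leucine zipper transcription factors that bind E-box DNA only as heterodimers with MAX and, on most of their targets, raise transcription of genes for ribosome assembly, nucleotide synthesis and growth. MXD proteins, MNT and MGA compete for the same MAX and the same E-boxes, and recruit histone deacetylase or Polycomb-type complexes that repress. In lymphocytes MYC is induced by antigen or cytokine signals and drives growth and division, MYCN is best known in progenitors and neural tissue, and MYCL is known in dendritic cells and lung neuroendocrine tumours.

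Because Mycl and Mycn were the members that differed most, in opposite directions, the 250 bases before the RefSeq start site of each are shown first (GRCm38.p6). Mycl lies on chromosome 4 (mm10, 122995652 to 123002485, plus strand) and Mycn on chromosome 12 (12936093 to 12941914, minus strand). The Mycl stretch is chr4:122995681-122995930 on the plus strand, and the Mycn stretch is chr12:12941837-12942086 read on the minus strand. Capitals mark TATAAA in Mycl and TTTGGCGC, the core of a classical E2F site, in Mycn.
Mycl: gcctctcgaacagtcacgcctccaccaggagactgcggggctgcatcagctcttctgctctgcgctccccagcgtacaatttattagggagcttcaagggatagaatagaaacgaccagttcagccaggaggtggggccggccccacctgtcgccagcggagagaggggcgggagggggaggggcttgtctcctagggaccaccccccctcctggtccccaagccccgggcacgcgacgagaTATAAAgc
Mycn: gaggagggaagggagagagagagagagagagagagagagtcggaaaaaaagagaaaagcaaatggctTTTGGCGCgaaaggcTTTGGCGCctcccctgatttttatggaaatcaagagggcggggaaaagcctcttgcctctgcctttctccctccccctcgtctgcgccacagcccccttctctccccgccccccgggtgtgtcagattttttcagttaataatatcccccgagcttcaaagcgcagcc
The RefSeq start of Mycl lies 279 bases downstream of the first base of the gene in the count table, and that of Mycn 78 bases downstream, so both stretches overlap the gene as counted.

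Promoter windows from 250 bases before to 50 after the start were searched on both strands for the MYC-MAX E-box CACGTG, the NF-kB consensus site, the AP-1 site TGANTCA, and the TATAAA and TTTGGCGC words, the last pair chosen after the sequences had been read; none of the words overlaps another in these windows. RefSeq windows were at hand for 9 of the 10 genes, Myc being the one without. The E-box was found in 3 of the 9 (Max, Mxd4 and Mnt), where 7.15% of all 32851 windows held it. In Max it begins 3 bases before the start site, in Mnt 123 bases and in Mxd4 219 bases before it. The NF-kB consensus and the AP-1 site were found in 0 of the 9 genes, against 4.51% and 7.81% of all windows. TATAAA was found in Mycl alone, 8 bases before the RefSeq start (13.6% of all windows), and TTTGGCGC in Mycn alone, in 2 copies beginning 183 and 168 bases before the start (0.514% of all windows). These are matches of letters in a short window and say nothing of binding.

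Of the MYC paralogs, Mycl was higher with TNFa, Mycn was lower and Myc differed by less than the spread between libraries. Mycl encodes L-MYC, a relative of MYC with weaker transforming activity. Its estimated counts were 187, 67 and 144 in PBS replicates 1 to 3 and 586, 528 and 856 in TNFa replicates 4 to 6. Scaled to library size, they came to 6.37, 2.28 and 4.56 CPM with PBS and 23.2, 19.7 and 25.9 CPM with TNFa. The lowest TNFa library thus stood well above the highest PBS library, and the PBS libraries differed more among themselves, relative to their mean, than the TNFa libraries did. The means were 4.40 ± 2.05 and 22.9 ± 3.09 CPM (SD, n = 3 each), and the fitted rise was 5.20-fold with a 95% interval of 3.09 to 8.77. The adjusted p that led to the choice of Mycl was 0.043 by the edgeR quasi-likelihood test, with Benjamini-Hochberg adjustment over all tested genes. Leaving out TNFa replicate 5 gave 0.012, with a log2 fold change of 2.47. But leaving out PBS replicate 1, 2 or 3 gave 0.17, 0.092 and 0.41, and leaving out TNFa replicate 4 or 6 gave 0.18 and 0.17. The log2 fold changes of these leave-one-out fits ran from 2.07 to 2.75. Scaling by library totals only gave an adjusted p of 0.056, and leaving out the filter on low counts gave 0.068.

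Mycn, which encodes N-MYC, went the other way. Its estimated counts were 209, 162 and 155 with PBS and 61, 18 and 57 with TNFa. In CPM these were 7.12, 5.51 and 4.91 against 2.41, 0.673 and 1.72, so that no TNFa library reached the lowest PBS library. TNFa replicate 5 was the lowest of all. The mean went from 5.85 ± 1.14 to 1.60 ± 0.875 CPM, a log2 fold change of -1.87 ± 0.46 (SE; 95% interval -2.89 to -0.84). This did not pass over all genes in edgeR (adjusted p = 0.28) but did in DESeq2 (adjusted p = 0.0092). Without TNFa replicate 5 the log2 fold change was -1.50 (edgeR adjusted p = 0.15).

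Myc itself was by far the most abundant paralog. It stood at 117, 112 and 109 CPM with PBS and 124, 97.6 and 126 CPM with TNFa, so the groups overlapped and TNFa replicate 5 was the lowest of the 6. The log2 fold change was 0.04 ± 0.12 (95% interval -0.24 to 0.31, adjusted p = 0.96), an interval that leaves room for up to a 1.24-fold rise or a fall to 0.849 of the PBS level. Without TNFa replicate 5 it was 0.14 ± 0.093 (adjusted p = 0.66). Pvt1, the noncoding RNA gene next to Myc on chromosome 15, stood at 8.89 ± 1.14 CPM with PBS and 9.45 ± 2.44 with TNFa.

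**Figure D1:**
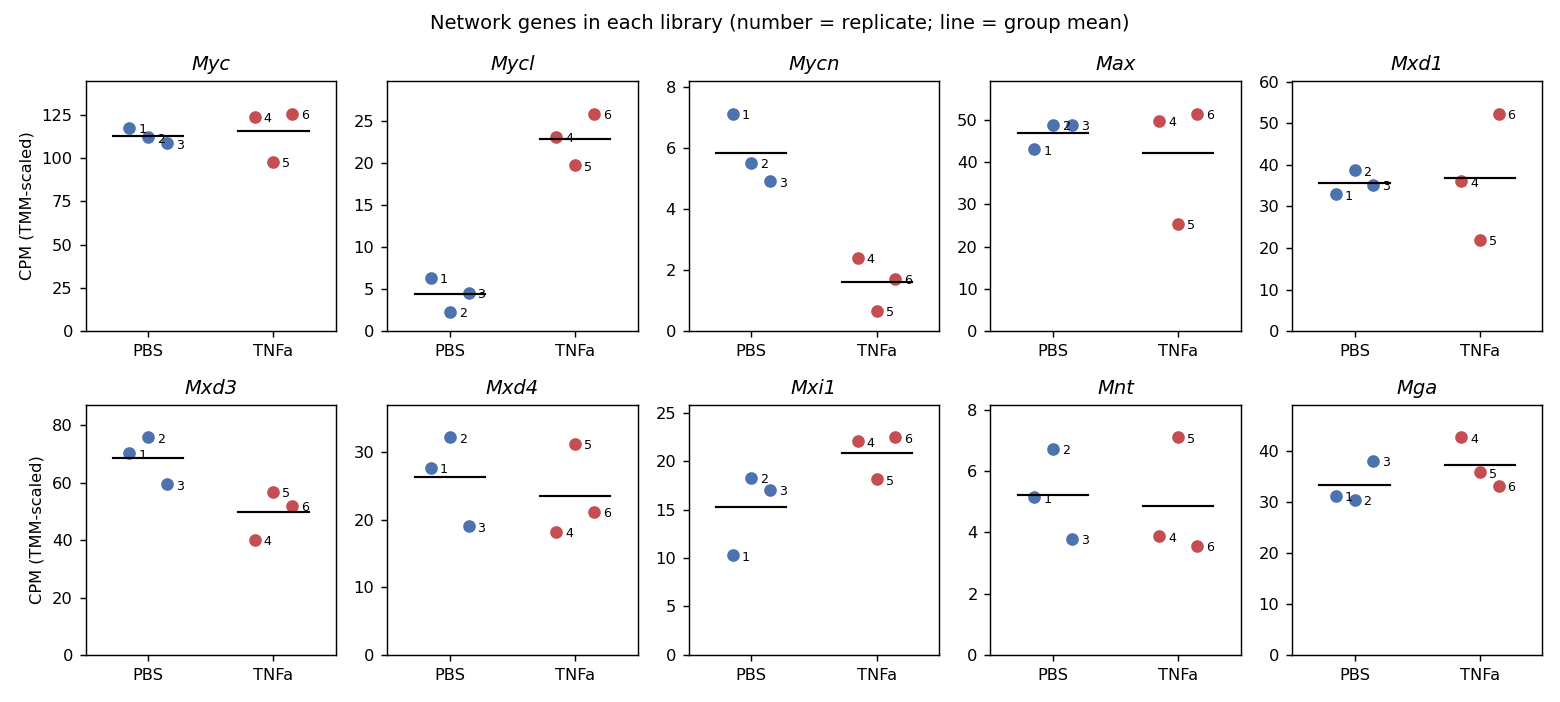
TMM-scaled CPM (vertical axes, from 0, a different range for each gene) of the 10 network genes in the 3 PBS (blue) and 3 TNFa (red) libraries; numbers are replicates and lines are group means. Mycl lies between 19.7 and 25.9 CPM in the TNFa libraries and between 2.28 and 6.37 in the PBS libraries, Mycn is lower in every TNFa library, and TNFa replicate 5 is set apart in Max and Mxd1.

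MAX is the partner that the other members share. Max was at 43.0, 48.9 and 48.8 CPM with PBS and at 49.7, 25.3 and 51.4 with TNFa. TNFa replicate 5 alone was low, and the other TNFa libraries were a little above every PBS library. The log2 fold change was -0.15 ± 0.24 over all libraries (adjusted p = 0.90) and 0.11 ± 0.12 without replicate 5 (adjusted p = 0.86), so its sign rested on that library.

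Among the MXD repressors, Mxd3, the form that is expressed in dividing cells during S phase, was the most abundant and was lower in each TNFa library. It stood at 70.2, 75.8 and 59.5 CPM with PBS against 40.1, 56.9 and 51.9 with TNFa. The groups did not overlap, but the gap between the lowest PBS and the highest TNFa library was small. The log2 fold change was -0.46 ± 0.16 (95% interval -0.82 to -0.11, adjusted p = 0.45), and -0.58 without TNFa replicate 5 (adjusted p = 0.17). Mxd3 overlaps the last 105 bases of Prelid1, which lies on the opposite strand and was at 740 ± 47.8 CPM with PBS and 702 ± 67.8 with TNFa. Whether counting used strand is not given in the sources used here, so reads of the 2 genes in the shared stretch may not have been told apart. The estimated counts of Mxd3 were whole in 0 of 6 libraries, as were those of Myc, Mxi1 and Mga.

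Mxd1 (MAD1), which is known to rise as cells stop dividing and differentiate, varied more within the TNFa group than within the PBS group. It was at 32.9, 38.6 and 35.2 CPM with PBS and at 36.0, 22.0 and 52.3 with TNFa. TNFa replicate 5 held the lowest value and TNFa replicate 6 the highest of the 6, and the means of 35.6 ± 2.90 and 36.8 ± 15.2 CPM differed by far less than that spread. The log2 fold change was 0.05 ± 0.26 (adjusted p = 0.98), 0.31 without replicate 5 and -0.30 without replicate 6.

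Mxi1 (MXD2) encodes a further MXD repressor. It was at 10.3, 18.3 and 17.1 CPM with PBS and 22.1, 18.1 and 22.4 with TNFa. PBS replicate 1 was the lowest library, and PBS replicate 2 lay just above TNFa replicate 5. The log2 fold change was 0.46 ± 0.23 (adjusted p = 0.66), 0.24 without PBS replicate 1 and 0.55 without TNFa replicate 5. Mxd4, the remaining MXD gene, was at 26.3 ± 6.69 CPM with PBS and 23.5 ± 6.83 with TNFa (log2 fold change -0.16 ± 0.25, adjusted p = 0.90), and its log2 fold change was -0.42 ± 0.22 without TNFa replicate 5 (adjusted p = 0.56).

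MNT, a repressor found in most cell types that opposes MYC whether or not cells divide, had few transcripts. Mnt was at 5.23 ± 1.47 CPM with PBS and 4.85 ± 1.96 with TNFa, and its log2 fold change of -0.11 ± 0.37 (adjusted p = 0.96) has an interval from -0.93 to 0.71, wide enough to hold a change of either sign. Without TNFa replicate 5 it was -0.49 ± 0.35 (adjusted p = 0.71). MGA is a very large protein that pairs with MAX within a Polycomb-type complex. Mga was at 33.2 ± 4.19 CPM with PBS and 37.2 ± 4.88 with TNFa (log2 fold change 0.16 ± 0.16, adjusted p = 0.83; 0.19 without TNFa replicate 5).

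Counted together, 5 of the 10 members had higher and 5 lower fitted values with TNFa (50.6% of tested genes were higher), with a median log2 fold change of -0.04, where the median of all tested genes was 0.00469. The test over all genes called 1 member higher, Mycl, and 0 lower, where 0.0891% of tested genes were called higher and 0.0127% lower. At an unadjusted p under 0.05 edgeR had Mycl higher, and Mycn and Mxd3 lower, where 3.68% and 4.63% of tested genes were higher and lower; DESeq2 called 2 members, Mycl and Mycn, where it called 1.39% of all genes. The same 3 genes were those whose groups did not overlap, where 6.85% of tested genes were separated higher and 8.35% lower. Without TNFa replicate 5, 4 members were separated higher and 2 lower, beside 13.5% and 13.7% of the 16484 genes tested then. At an unadjusted p under 0.05 edgeR then had 2 members higher and 2 lower, beside 5.23% and 5.56% of those genes. Since the set was chosen with Mycl's result known, nothing is read from these counts.

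**Figure D2:**
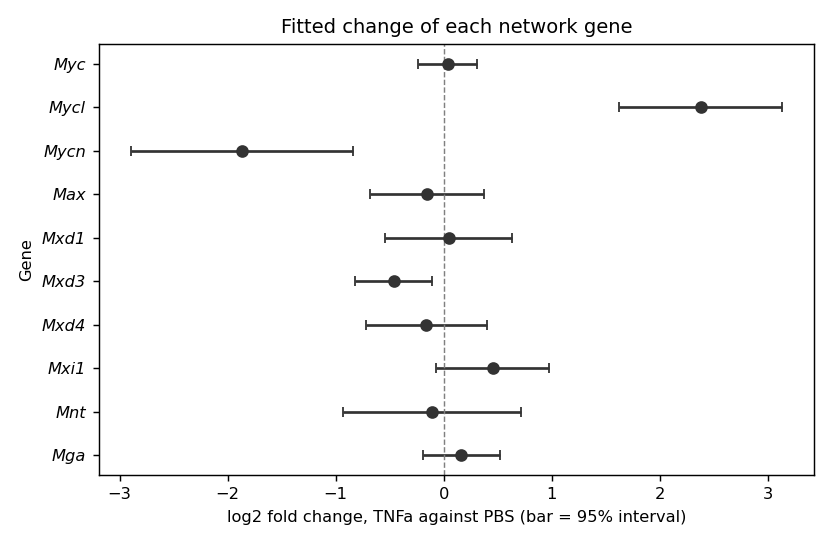
Fitted log2 fold change of TNFa against PBS (horizontal axis) for the 10 network genes; points are estimates from 3 libraries a group and bars are 95% intervals. The intervals of Mycl (1.63 to 3.13), Mycn (-2.89 to -0.84) and Mxd3 (-0.82 to -0.11) leave out 0, and those of the other 7 genes hold it.

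Levels of different genes were compared as CPM per kb of annotated exon sequence. With PBS the order was Myc at 41.4 ± 1.62, Mxd3 at 28.9 ± 3.50, Max at 13.0 ± 0.933, Mxd1 at 5.03 ± 0.410, Mxd4 at 3.10 ± 0.788, Mxi1 at 2.23 ± 0.632, Mga at 2.16 ± 0.273, Mycn at 1.77 ± 0.347, Mnt at 1.13 ± 0.318 and Mycl at 1.09 ± 0.508 CPM per kb. The top 4 were each separated from the next gene in every PBS library, and so was Mycn from Mnt, whereas Mxd4, Mxi1, Mga and Mycn overlapped neighbour by neighbour, as did Mnt and Mycl. With TNFa the top 3 kept this order without overlap. Mycl moved from place 10 to place 4, at 5.68 ± 0.765 CPM per kb, and overlapped Mxd1 at 5.20 ± 2.15. Mycn moved from place 8 to place 10, at 0.486 ± 0.266, below every TNFa library of Mnt. These places depend on the length used: per kb of the longest transcript, Mycl was at 1.26 with PBS, above Mnt at 1.14 and so at place 9, and at 6.55 with TNFa, below Mxd1 at 7.88 and so at place 5.

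The make-up of the MYC paralog pool therefore differed while Myc stayed its main part. As a share of the per-kb sum of Myc, Mycl and Mycn, Mycl was 3.37%, 1.30% and 2.65% in PBS replicates 1 to 3 and 11.0%, 11.9% and 12.1% in TNFa replicates 4 to 6. Mycn was 4.61%, 3.85% and 3.50% with PBS and 1.41%, 0.498% and 0.985% with TNFa. Mycl was below Mycn in every PBS library, at 0.337 to 0.758 of its level, and above it in every TNFa library, at 7.84 to 23.9 times its level. Myc held 93.6% ± 1.43 of the sum with PBS and 87.4% ± 0.362 with TNFa. The sum itself was 44.3 ± 2.29 CPM per kb with PBS and 48.7 ± 6.69 with TNFa, and the groups overlapped, TNFa replicate 5 being the lowest at 41.0. These shares use the same libraries that led to the choice of Mycl, and no p is given for them.

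The summed repressors (Mxd1, Mxd3, Mxd4, Mxi1 and Mnt) stood at 40.2, 45.4 and 35.7 CPM per kb with PBS and at 28.2, 35.0 and 35.9 with TNFa. TNFa replicate 6 lay just above PBS replicate 3, so the groups overlapped. Mxd3 made up 71.6% ± 1.92 of this sum with PBS and 63.2% ± 4.72 with TNFa. Per unit of MYC paralog transcript, the repressor sum was 0.856, 1.05 and 0.838 with PBS and 0.543, 0.854 and 0.675 with TNFa, again overlapping through TNFa replicate 5. Transcript ratios do not measure protein.

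**Figure D3:**
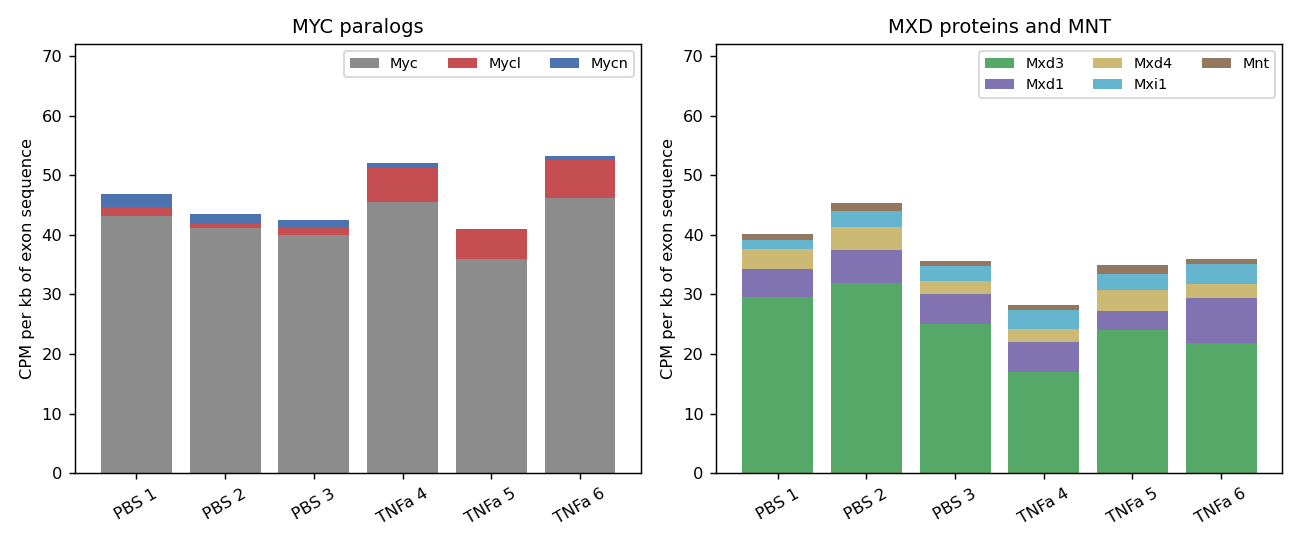
Stacked CPM per kb of exon sequence (vertical axes, from 0) in each of the 6 libraries, for the MYC paralogs on the left and the MXD genes with Mnt on the right. Mycl (red) takes 11.0% to 12.1% of the MYC paralog sum in the TNFa libraries and at most 3.37% in the PBS libraries, and Mxd3 (green) is the largest repressor part throughout.

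Of the genes beside Mycl, only the one on the right had enough counts to compare, and it did not follow Mycl. Trit1, a tRNA modifying enzyme gene that starts 14111 bases to the right, was at 15.2 ± 2.33 CPM with PBS and 15.6 ± 2.98 with TNFa (log2 fold change 0.04 ± 0.21). On the left the nearest gene in the table, 4933421A08Rik at 32176 bases, was at 0.237 and 0.172 CPM on average, too low to test. No annotated gene overlaps Mycl or Mycn, and their counts were whole within 0.01 in 6 of 6 libraries.

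Over the 6 libraries, the genes whose log2 CPM was most like that of Mycl among 12788 genes were Fam161a (Pearson r = 0.994), Cct4, a chaperonin subunit gene (0.990), Rsl1d1, which encodes a nucleolar ribosome biogenesis protein (0.986), Pih1d2 (0.983) and Hemk1 (0.982). Their sizes of difference varied. The 2 with low levels differed more, Pih1d2 going from 0.423 ± 0.167 to 1.98 ± 0.0972 CPM (log2 fold change 2.22, adjusted p = 0.23) and Fam161a from 0.775 ± 0.155 to 1.37 ± 0.119 CPM (0.83, adjusted p = 0.71). The other 3 had log2 fold changes of 0.23 to 0.27: Cct4 went from 374 ± 17.8 to 439 ± 11.7 CPM, Rsl1d1 from 232 ± 19.5 to 280.1 ± 0.938 CPM and Hemk1 from 78.2 ± 3.59 to 93.7 ± 3.40 CPM. For Myc the most alike were I730030J21Rik (0.991), Ctc1 (0.991), Zpbp2 (0.986), Carmil1 (0.986) and Pcdhgc3 (0.983), which like Myc differed little between the group means. With 6 libraries in 2 groups such values describe a shared profile only, and 47 genes passed r = 0.95 with Mycl and 51 with Myc.

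Genes widely described as MYC targets were mostly higher with TNFa, each by a small amount. Of 40 listed, 34 had higher and 6 lower fitted values, with a median log2 fold change of 0.26 where that of all tested genes was 0.00469. None passed the test over all genes in edgeR, while 17 were higher and 0 lower at an unadjusted p under 0.05, beside 3.68% and 4.63% of tested genes, and DESeq2 called 4 higher, where it called 0.687% of tested genes higher. In 22 of the 40 every TNFa library lay above every PBS library, where 6.85% of tested genes did so. The list was chosen with earlier results of these data known, so its counts, with or without TNFa replicate 5, are a description and nothing is read from them. The 4 that DESeq2 called were Npm1, nucleophosmin (623 against 997 CPM, log2 fold change 0.68 ± 0.14, edgeR adjusted p = 0.19), Gnl3, nucleostemin (81.6 against 116 CPM, 0.51 ± 0.12, adjusted p = 0.22), the hexokinase gene Hk2 (42.5 against 67.5 CPM, 0.67 ± 0.15, adjusted p = 0.23) and Srm, spermidine synthase (141 against 195 CPM, 0.46 ± 0.11, adjusted p = 0.27). The 6 with lower values, named after they were seen, were Slc7a5, Ldha, Shmt2, Mthfd2, Bop1 and Ccnd2, none below -0.19.

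The target list stood above the PBS mean in each TNFa library, its median deviation being 0.24, 0.28 and 0.21 on the log2 scale in replicates 4, 5 and 6. TNFa replicate 5, in which ribosomal protein genes took the larger share of counts, held the highest of the 6 values for 20 of the 40 genes and the lowest for 7. Without it 35 of 40 were higher, the median was 0.21, 27 did not overlap (13.5% of tested genes did so), 18 were higher and 0 lower at an unadjusted p under 0.05 (5.23% and 5.56% of tested genes) and Npm1 passed over all genes (0.231% of tested genes passed higher). Whether the genes of this list moved through the network members was not tested.

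For genes of the proteins that work with the network, fitted differences were mostly small. Of 16 MYC cofactor genes 7 were higher and 9 lower, with a median of -0.04 and 0 calls in edgeR or DESeq2; 1 was higher and 0 lower at an unadjusted p under 0.05, beside 3.68% and 4.63% of tested genes. Trrap, the scaffold of the histone acetyltransferase complexes that MYC recruits, had the smallest p (37.7 against 48.2 CPM, log2 fold change 0.36 ± 0.15, adjusted p = 0.56), followed by the helicase genes Ruvbl1 (0.22 ± 0.11) and Ruvbl2 (0.20 ± 0.10) of the same complexes. Of 16 corepressor genes of the SIN3-HDAC and MGA-PCGF6 complexes 5 were higher and 11 lower, with a median of -0.04 and 0 calls by either tool or at an unadjusted p under 0.05. Without TNFa replicate 5, edgeR had 0 corepressor genes higher and 2 lower at an unadjusted p under 0.05, and 0 cofactor genes in either direction. The shares of all tested genes were then 5.23% and 5.56%. The smallest p-values there were those of the histone methyltransferase gene Ehmt2 (-0.26 ± 0.14, adjusted p = 0.69), Suds3 (-0.17 ± 0.14) and Cbx3 (0.13 ± 0.13).

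Of 16 genes for MYC protein turnover 4 were higher and 12 lower, with a median of -0.05, 0 calls by either tool, and 2 in each direction at an unadjusted p under 0.05, beside 3.68% of tested genes higher and 4.63% lower. The list summed to 1512 to 1583 CPM with PBS and 1413 to 1466 CPM with TNFa, so the summed level was lower in every TNFa library. Abundant genes weigh most on such a sum, which does not measure turnover. Among them Plk1 (226 against 189 CPM) and Aurka (196 against 185) were lower with TNFa, while Huwe1 was higher (92.6 against 119). Ppp2r5a, a regulatory subunit of the phosphatase PP2A, was at 218 CPM with PBS and 173 with TNFa (log2 fold change -0.33 ± 0.11, adjusted p = 0.43). Skp2, a ubiquitin ligase subunit that acts on MYC, was at 20.9 and 29.2 CPM (0.48 ± 0.17, adjusted p = 0.45), and the mitotic kinase gene Aurkb at 202 and 168 CPM (-0.27 ± 0.10, adjusted p = 0.51).

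Of 12 other E-box binding factors 10 were tested, 5 higher and 5 lower, with a median of -0.01, 0 calls in edgeR, and 0 higher and 3 lower at an unadjusted p under 0.05, beside 3.68% and 4.63% of tested genes. Tfeb, the regulator of lysosome genes, was at 19.2, 19.5 and 14.8 CPM with PBS and 8.06, 8.19 and 10.1 with TNFa. The groups did not overlap, and the log2 fold change of -1.02 ± 0.21 did not pass in edgeR (adjusted p = 0.17) but did in DESeq2, as the 1 call on this list, where DESeq2 called 0.7% of tested genes lower. The sterol regulator gene Srebf2 (-0.32 ± 0.11, adjusted p = 0.46) and Usf1 (-0.34 ± 0.14, adjusted p = 0.54) came next. Mlx and Mlxip, the partner and the sugar-sensing arm of the extended network, were at 84.9 and 35.9 CPM with PBS and 81.8 and 39.9 with TNFa (adjusted p = 0.94 and 0.84).

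**Figure D4:**
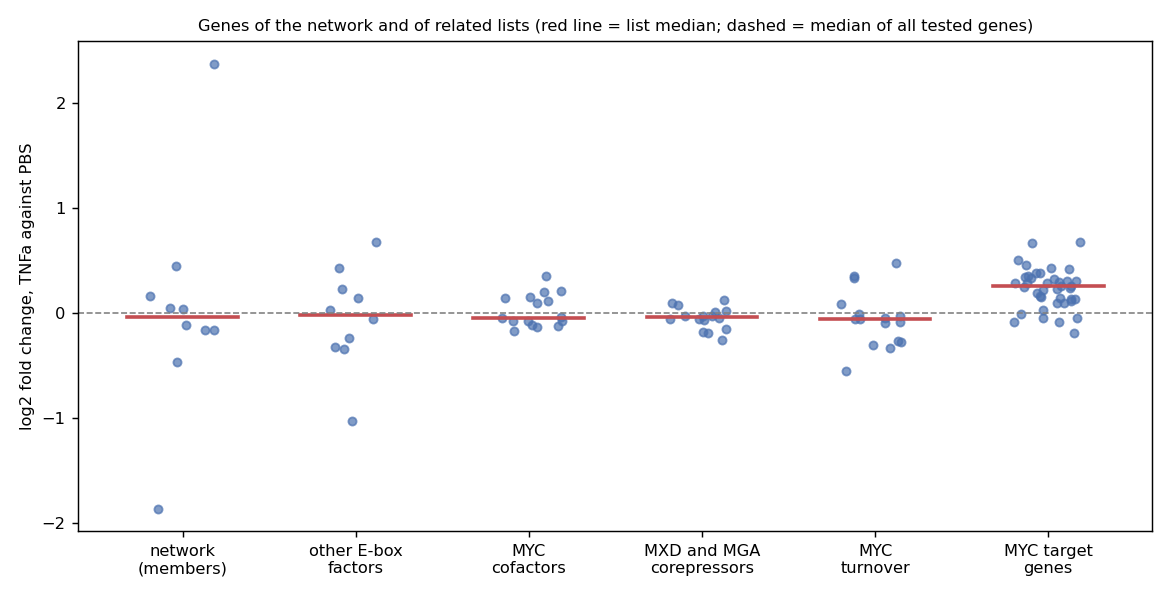
Log2 fold change of TNFa against PBS (vertical axis) for each tested gene of the network and of 5 related lists; points are genes, red lines list medians and the dashed line the median of all tested genes. Mycl and Mycn lie farthest from 0, the MYC target list has a median of 0.26, and the other lists have medians between -0.05 and -0.01.

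Markers of other cells were read beside Mycl because dendritic cells are known to express it. Of 14 dendritic cell genes 12 were in the table and 10 were tested, 8 of them higher and 2 lower, and the list summed to 139 to 156 CPM with PBS and 160 to 204 CPM with TNFa. Most of that sum came from Ccr7, a lymph node homing receptor also made by lymphocytes (55.8 ± 9.23 CPM with PBS, 97.6 ± 4.42 with TNFa, adjusted p = 0.0995), Irf8, and Xcr1, which was lower with TNFa (37.5 against 24.5 CPM, adjusted p = 0.27). Of the others, Flt3 was at most 0.127 CPM in any library, Siglech at most 0.190, Batf3 at most 0.751 and Zbtb46 at most 1.30, and Fscn1 was under 1 CPM throughout. Cd83 reached 3.75, Ccl22 4.14, Itgax 5.69 and Itgae 10.3 CPM. Itgax was at 0 in TNFa replicates 5 and 6. Other markers differed between these libraries. In TNFa replicate 6, Irf8, Zbtb46 and Ccl22 were at their highest of all libraries, Ccl22 by little. Cd83 was above every PBS library there, and Xcr1 was below every PBS library. In TNFa replicate 5, Irf8, Ccl22 and Xcr1 were at their lowest of all libraries. Zbtb46 was higher in each TNFa library (0.438 against 1.09 CPM, adjusted p = 0.64). The part of dendritic cell RNA in the level of Mycl was not tested.

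The marker lists of cells other than ILC2s, that of dendritic cells included, gave 0 calls in edgeR over all libraries, where it called 0.0891% of tested genes higher and 0.0127% lower. Without TNFa replicate 5 it called Ccr7 (adjusted p = 0.034) and Il22 (0.0073) higher, where 0.231% of tested genes were called higher, and Gzma (0.0055), Gzmb (0.026) and Epcam (0.049) lower, where 0.176% were. DESeq2 called 1 of 10 dendritic cell genes higher and 1 lower, 2 higher and 2 lower of 8 NK cell and other ILC genes, and 1 of 4 structural genes lower, beside 0.687% of tested genes higher and 0.7% lower. At an unadjusted p under 0.05 edgeR had 1 dendritic cell gene higher and 1 lower, 3 higher and 2 lower of the NK cell and other ILC genes, and 1 structural, 1 B cell and 2 myeloid genes lower, beside 3.68% of tested genes higher and 4.63% lower. The summed NK cell and other ILC genes were lower, at 193 to 236 CPM with PBS and 132 to 168 with TNFa, led by Gzmb, Il22 and Gzma, of which Il22 was higher. T cell genes summed to 97.8 to 110.0 and 79.5 to 94.6 CPM, the smallest p-values being those of Cd28, Trac and Cd4. Sums of the B cell, myeloid, mast cell with basophil, and structural lists overlapped between the groups. The genes of smallest p were Cd79b, Igkc and Ms4a1 (B cell) and Adgre1, Lyz2 and Cd14 (myeloid). They were Ms4a2, Tpsab1 and Cma1 (mast cell with basophil) and Epcam, Scgb1a1 and Pecam1 (structural). The mast cell with basophil list summed to 1226 to 1392 CPM with PBS and 1303 to 1482 with TNFa, led by Tpsab1. The B cell, myeloid and structural lists reached at most 214, 100 and 198 CPM in any library. Scgb1a1 was at 81.0, 0.187 and 46.1 CPM in TNFa replicates 4 to 6 and at most 8.07 with PBS. The part of these lists in the network's values was not tested.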

How the data were processed

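RNA-seq of 6 libraries was used, 3 with PBS and 3 with TNFa. Estimated counts of each gene, deposited by the authors, came from Partek's expectation-maximization, per the file headers and file name; CASAVA 1.8.2, STAR and mm10 are named in the submitters' processing notes. Neither annotation release nor use of strand is given in the sources used here. The table held genes with totals of at least 10, 41.7% of values were whole within 0.01, and 0 value columns were unused.

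Estimated counts were rounded and tested with edgeR 4.0.16 (R 4.3.3): filterByExpr (minimum count 10, total 15), TMM scaling, robust quasi-likelihood test, Benjamini-Hochberg adjustment over 15719 genes, threshold 0.05. DESeq2 1.42.0 was an alternative. The test was checked on simulated data, where it called 12.5% of 1.5-fold, 34.0% of 2-fold, 73.9% of 4-fold and 73.5% of 5-fold changes. Of 95 calls there 3 were false, and it called 0 genes where no change was simulated. A gene that did not pass may therefore still differ. Exon lengths came from GENCODE M21, whose coordinates matched 9 of 10 members; Mxi1 starts 12 bases apart. Promoters came from RefSeq (GRCm38.p6). Libraries held 25089415 to 32487004 counts; counting error was not separated from the spread between libraries.

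Members and lists were chosen with earlier results of these data known. Every member was named, of each other list the called genes or the 3 of smallest p, and the 5 genes most alike to Mycl and to Myc (mean of at least 1 CPM, prior count 2); no gene set test was run.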

Additional observations from a re-analysis of the deposited data

How the results depend on the processing

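No paired analysis was run, because the groups share no replicate number and the labels do not say whether cultures were paired. The count of members past the threshold was 1; it was 0 with library totals only and with no filter, 2 with the DESeq2 test, and 0 to 1 when 1 library was left out, the call of Mycl holding only without TNFa replicate 5. Mycl kept its direction, with log2 fold changes from 2.07 to 2.75 and adjusted p from 0.012 to 0.41 over the leave-one-out fits, which also have fewer libraries; its adjusted p was 0.056 with library totals only and 0.068 with no filter. Mycn was lower in every alternative run, at -2.28 to -1.50 when 1 library was left out, and so was Mxd3, at -0.58 to -0.34. The signs of members near 0 depended on single libraries: leave-one-out values ran from -0.027 to 0.14 for Myc, -0.32 to 0.11 for Max, -0.30 to 0.31 for Mxd1, -0.42 to 0.0099 for Mxd4 and -0.49 to 0.11 for Mnt. Under these fits list medians ran from -0.11 to 0.018 for other E-box factors (-0.12 with the filter at 5 CPM, which Mnt did not pass), from -0.10 to -0.042 for MYC turnover and from 0.21 to 0.27 for MYC targets. The cause of these shifts was not tested.

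With the longest transcript as length, PBS levels in CPM per kb were 48.1 for Myc, 39.3 for Mxd3, 24.2 for Max, 7.63 for Mxd1, 5.68 for Mxd4, 3.02 for Mxi1, 2.19 for Mycn, 1.26 for Mycl and 1.14 for Mnt. With TNFa they were 49.4 for Myc, 28.5 for Mxd3, 21.7 for Max, 7.88 for Mxd1, 6.55 for Mycl, 5.09 for Mxd4 and 4.15 for Mxi1. The MYC paralog sum was then 51.6 with PBS and 56.6 with TNFa, and the repressor sum 56.8 and 46.7. These sums are larger by construction, as the lengths are shorter. The repressor sum per unit of MYC paralogs was 1.10 with PBS and 0.84 with TNFa, against 0.913 and 0.691 per kb of all annotated exon sequence. The lengths did not shorten alike, Mxd4 going from 8483 to 4627 bases and Myc from 2717 to 2338. Whether the PBS ratio lies above or below 1 thus depends on the length used. Precision is limited by 3 libraries a group, and for Mycn also by counts as low as 18.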
